A study of Mus musculus with 10 samples.

Results

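The genes described here are the 78 protein-coding mouse genes whose symbol begins with Mrpl or Mrps followed by a number, the mitochondrial ribosomal protein genes. There were 49 Mrpl and 29 Mrps genes among the 45321 genes with a transcript in the deposited tables, and 5 pseudogene loci with such symbols were not included. All 78 passed the filter on low counts, which left 14417 genes for testing. RNA was measured in naive CD4 T cells sorted from C57BL/6 mouse spleen as CD4+CD62L+CD69- cells. Every culture was first held for 1 h with either DMSO, the vehicle, or 12.5 µM Compound 10, which the series presents as an inhibitor of the NFAT:AP-1 transcription factor complex. Cells were then kept unstimulated or stimulated for 2 h with 10 nM PMA, which switches on protein kinase C, and 1 µM ionomycin, which lets calcium in. There were 3 unstimulated and 2 stimulated vehicle libraries, and 2 unstimulated and 3 stimulated Compound 10 libraries. Nothing in the sources used here says that libraries of a group are separate mice or cultures. The p-values therefore cover the spread among these libraries alone, part of which may be technical.

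The mitochondrial ribosome translates the few mRNAs that the mitochondrial genome encodes, all of them for subunits of the oxidative phosphorylation complexes. Its rRNAs come from the mitochondrial genome, but all of its proteins are encoded in the nucleus, made in the cytosol and imported. Part of these proteins have counterparts in the bacterial ribosome, and part are found only in mitochondria. T cells that leave quiescence are known to expand their mitochondria and to depend on mitochondrial translation. The symbol does not always give the place of the protein. The products of Mrps30 and Mrps18a sit in the large subunit, and the product of Mrps36 is a component of the alpha-ketoglutarate dehydrogenase complex.

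Each library held between 10694591 and 33486259 estimated counts, and the 2 deepest were unstimulated vehicle library 3 and unstimulated Compound 10 library 2. In every library T cell markers (7 genes, summing to 1298 to 3039 CPM, counts scaled to a common library total) and naive T cell markers (5 genes, 1410 to 1928 CPM) stood far above markers of B cells (24.9 to 76.3 CPM), myeloid cells (2.21 to 25.4), CD8 T cells (2.41 to 10.6) and NK cells (1.20 to 8.31, with Ncr1 at 0). Myeloid markers summed to 13.6 to 25.4 CPM in unstimulated vehicle cells and to at most 9.67 CPM in the other groups, and the part of this in the results was not tested. Markers of regulatory T cells, a list whose Il2ra and Ctla4 are known to rise on activation, summed to 17.7 to 35.3 CPM in unstimulated and 50.4 to 212 CPM in stimulated libraries, and memory or effector markers to 35.4 to 61.6 CPM in all. CPM values are given after TMM scaling, which sets a library's scale by the bulk of its genes.

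The upstream sequences of 4 genes are shown because these genes rose under vehicle or were lower with Compound 10 in stimulated cells, as described further on. Each is the 250 bases before the RefSeq start (build GRCm38.p6), read on the strand of the gene. Capitals mark matches on either strand to CCGGAAG (an ETS family motif), GCATGCGC (NRF1), AAGATGGC (YY1), CACGTG (E-box) or TGACTCA (AP-1). The regions are chr11:120484387-120484636 on the plus strand for Mrpl12, chr19:11770165-11770414 on the plus strand for Mrpl16, chr19:45006443-45006692 on the minus strand for Mrpl43 and chr7:105811088-105811337 on the minus strand for Mrpl17.
Mrpl12: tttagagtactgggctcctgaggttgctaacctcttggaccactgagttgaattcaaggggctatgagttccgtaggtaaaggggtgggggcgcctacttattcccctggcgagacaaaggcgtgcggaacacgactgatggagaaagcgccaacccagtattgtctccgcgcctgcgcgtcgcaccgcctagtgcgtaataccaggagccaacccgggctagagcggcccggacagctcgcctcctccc
Mrpl16: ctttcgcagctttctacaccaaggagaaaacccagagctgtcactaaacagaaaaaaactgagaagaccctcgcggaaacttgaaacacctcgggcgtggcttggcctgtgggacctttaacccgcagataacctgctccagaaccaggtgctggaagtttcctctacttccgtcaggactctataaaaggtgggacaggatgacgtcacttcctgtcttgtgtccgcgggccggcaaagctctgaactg
Mrpl43: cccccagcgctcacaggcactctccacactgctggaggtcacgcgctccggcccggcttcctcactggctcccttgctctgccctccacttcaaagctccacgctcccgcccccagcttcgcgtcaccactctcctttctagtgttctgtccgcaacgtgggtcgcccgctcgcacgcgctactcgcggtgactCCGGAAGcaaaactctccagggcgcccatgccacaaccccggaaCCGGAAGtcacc
Mrpl17: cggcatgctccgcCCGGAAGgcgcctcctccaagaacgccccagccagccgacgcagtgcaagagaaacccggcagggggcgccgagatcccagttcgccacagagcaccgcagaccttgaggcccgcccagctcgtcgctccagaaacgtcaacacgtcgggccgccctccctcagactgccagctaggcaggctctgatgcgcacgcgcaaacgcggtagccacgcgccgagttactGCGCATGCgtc

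The Mrpl12 and Mrpl16 sequences held none of the 5 motifs, the Mrpl43 sequence held 2 ETS matches, and the Mrpl17 sequence held 1 ETS and 1 NRF1 match. Windows of 300 bases, from 250 before to 50 after a start, were found for 69 of the 78 genes, and a motif was counted for a gene when any window of it held a match on either strand. The ETS motif CCGGAAG was in a window of 26 of these 69 genes (37.7%), against 20.8% of the 9804 tested genes with a window. AAGATGGC was in 12 (17.4%, against 5.45%) and GCATGCGC in 8 (11.6%, against 6.08%). CACGTG was in 5 (7.25%, against 11.9%), CCAAT, the NF-Y motif, in 27 (39.1%, against 43.1%), TGACTCA in 2 (2.90%, against 4.33%) and GGAAAA, the core bound by NFAT, in 18 (26.1%, against 23.9%). Among windows of genes that were lower with Compound 10 in stimulated cells, 10 of 30 held the ETS motif, and 16 of 45 windows of the other members did. These matches describe letters in the windows and not binding.

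Per length, in TPM, the genes differed widely in level. Mean TPM over the 10 libraries ran from 2.63 for Mrpl11 to 174 for Mrps6, with a median of 34.9. The highest after Mrps6 were Mrpl30 (156 TPM) and Mrpl15 (103 TPM), and the lowest after Mrpl11 were Mrps2 (5.03 TPM) and Mrpl57 (6.85 TPM). TPM of a gene depends on which of its transcripts the reads were given to, and short transcripts carry much of the TPM of Mrpl30. Summed over all members, TPM was 4672 ± 433 (SD, n = 3) in unstimulated vehicle cells, 3538 ± 183 (n = 2) in unstimulated Compound 10 cells, 2638 ± 215 (n = 2) in stimulated vehicle cells and 1855 ± 251 (n = 3) in stimulated Compound 10 cells. The libraries of the 4 groups did not overlap in this sum. Summed TPM of the 77 cytosolic ribosomal protein genes was 110880 ± 15697, 129351 ± 22363, 100182 ± 3014 and 113525 ± 2745 in the same order.

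On the TMM-scaled CPM scale the order was not the same. The members summed to 2067, 1978 and 2685 CPM in the unstimulated vehicle libraries, 1656 and 1971 with Compound 10 alone, 2090 and 2197 in stimulated vehicle libraries and 1188, 1350 and 1507 in stimulated Compound 10 libraries. Stimulated Compound 10 libraries were lower than all others, while both stimulated vehicle libraries lay within the range of the unstimulated vehicle libraries. Stimulated libraries had TMM factors of 0.731 to 0.850 and unstimulated ones of 1.20 to 1.34. Without these factors the median log2 fold change of all tested genes under vehicle stimulation was -0.83 in place of -0.06, so a fold change in stimulated against unstimulated cells is a change relative to the bulk of genes. The ratio of summed Mrpl to summed Mrps TPM was 1.52 ± 0.070 in unstimulated vehicle cells (range 1.44 to 1.56) and 1.39 ± 0.0227 in stimulated vehicle cells (1.37 and 1.40). In Compound 10 cells it was 1.55 ± 0.0285 unstimulated and 1.38 ± 0.0337 stimulated.

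**Figure D1:**
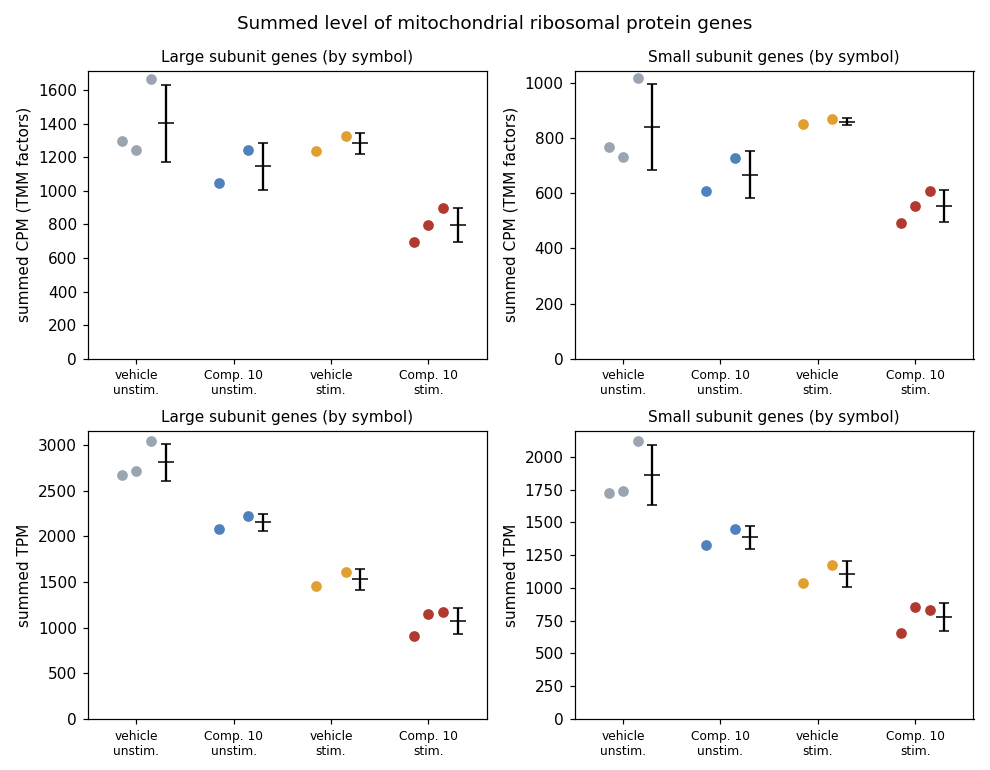
Summed level of the Mrpl and Mrps genes in each library, in TMM-scaled CPM (upper panels) and TPM (lower panels), with the mean and SD of each group beside the points. Over both panels of a row, the 3 stimulated Compound 10 libraries sum to the lowest values (1188 to 1507 CPM and 1565 to 2004 TPM). Stimulated vehicle libraries (2486 and 2790 TPM) lie below unstimulated vehicle libraries (4393 to 5171 TPM) in the TPM panels.

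Stimulation under vehicle divided the genes. Of the 78 genes, 9 rose and 25 fell (edgeR, adjusted p under 0.05), beside 39.0% of all tested genes called in either direction, 19.5% higher and 19.4% lower. The members' median log2 fold change was -0.46, and that of all tested genes was -0.06. By symbol, 5 of 49 Mrpl genes rose and 16 fell (median -0.28), and 4 of 29 Mrps genes rose and 9 fell (median -0.53). Both stimulated libraries lay above all 3 unstimulated ones for 14 members (30.2% of all genes) and below them for 40 (32.3%). Of the 46 genes with a bacterial counterpart 6 rose and 13 fell, and of the 31 mitochondria-specific ones 3 rose and 12 fell. The lower count was 12 without stimulated vehicle library 1 and 17 without library 2, where 10.1% and 12.4% of all genes were lower. Without TMM factors 57 were lower and 5 higher, beside 45.8% and 8.34% of all genes. Leaving out unstimulated vehicle library 3 moved the members' median to -0.23.

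The largest rise was that of Mrpl17, a conserved protein near the exit of the nascent chain tunnel (chr7:105803206-105811099, minus strand, GENCODE M21 on mm10). Its level was 9.91, 11.1 and 9.52 CPM in unstimulated and 57.4 and 55.7 CPM in stimulated vehicle libraries. The groups lay far apart, and the log2 fold change was 2.47 ± 0.17 (SE; adjusted p = 8.79e-07). Mrps6, a conserved small subunit protein and the gene highest in TPM, went from 59.2, 50 and 62.4 CPM to 186 and 178 CPM. Both stimulated libraries were above every unstimulated one, with a log2 fold change of 1.67 ± 0.15 (adjusted p = 6.86e-06). Its gene shares 159 exon bases on the same strand with Slc5a3, a myo-inositol transporter gene whose mean level was 66.0 CPM in unstimulated and 302 CPM in stimulated vehicle cells, and the split of shared reads was not tested.

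Mrpl12 encodes the stalk protein that contacts translation factors (chr11:120484613-120489065, plus strand). It was measured at 43.7, 37.4 and 45.4 CPM unstimulated and at 126 and 122 CPM stimulated. The log2 fold change was 1.56 ± 0.17 (adjusted p = 3.44e-05). Mrpl16, a conserved large subunit protein (chr19:11770391-11774960, plus strand), stood at 17.8, 17.3 and 18.1 CPM against 45.7 and 53.2 CPM, a log2 fold change of 1.48 ± 0.16 (adjusted p = 3.82e-05). Mrps7, a conserved protein of the small subunit head, went from 55.3, 49.8 and 64.6 CPM to 113 and 117 CPM. Its log2 fold change was 1.02 ± 0.19 (adjusted p = 0.00139), and 0.309 was its adjusted p without TMM factors. In each of these 3 genes both stimulated libraries were above every unstimulated one.

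Other rises were smaller or rested on low counts. Mrps2, a conserved small subunit protein, was at 5.42, 6.99 and 1.26 CPM unstimulated and 23.3 and 22.1 CPM stimulated (log2 fold change 2.33 ± 0.53, adjusted p = 0.00482). Mrps18b (0.81 ± 0.21, adjusted p = 0.0102) and Mrpl54 (0.92 ± 0.30, adjusted p = 0.032) were no longer called without TMM factors. Mrps18b also lost its call without either stimulated vehicle library, and Mrpl54 without stimulated vehicle library 2 or unstimulated vehicle library 1 or 2. Mrpl52 completed the 9, at a log2 fold change of 0.74 ± 0.26 (adjusted p = 0.0443).

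Among the genes that fell, Mrpl34, a small basic protein of the large subunit, went from 18.1, 21 and 28.7 CPM to 5.92 and 5.71 CPM under vehicle (log2 fold change -1.96 ± 0.29, adjusted p = 0.000302). Mrps27, a pentatricopeptide repeat protein of the small subunit, went from 16.9, 17.2 and 21 CPM to 5.02 and 3.98 CPM (-2.04 ± 0.30, adjusted p = 0.000309). Every stimulated library of both genes was below every unstimulated one. Mrps5, a conserved protein of the small subunit near the mRNA entry, went from 31.6, 36.5 and 35.1 CPM to 11.2 and 13.8 CPM (-1.46 ± 0.19, adjusted p = 0.000101).

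The largest fall by fold was in Mrpl14, which lies at the subunit interface, at 9.48, 8.90 and 20.2 CPM unstimulated and 1.29 and 3.03 CPM stimulated (-2.53 ± 0.52, adjusted p = 0.00255). Falls also passed the test in Mrpl42 (-2.06 ± 0.52, adjusted p = 0.00868), Mrpl1 of the L1 stalk (-1.35 ± 0.29, adjusted p = 0.00355), Mrpl2 of the peptidyl transferase centre (-1.72 ± 0.32, adjusted p = 0.0012) and Mrpl22 of the exit tunnel wall (-1.71 ± 0.28, adjusted p = 0.000586). The calls of Mrpl1 and Mrpl42 were lost without stimulated vehicle library 1, at an adjusted p of 0.0548 and 0.0928. The 17 remaining genes that fell had log2 fold changes between -0.54 (Mrpl24) and -1.31 (Mrpl37).

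**Figure D2:**
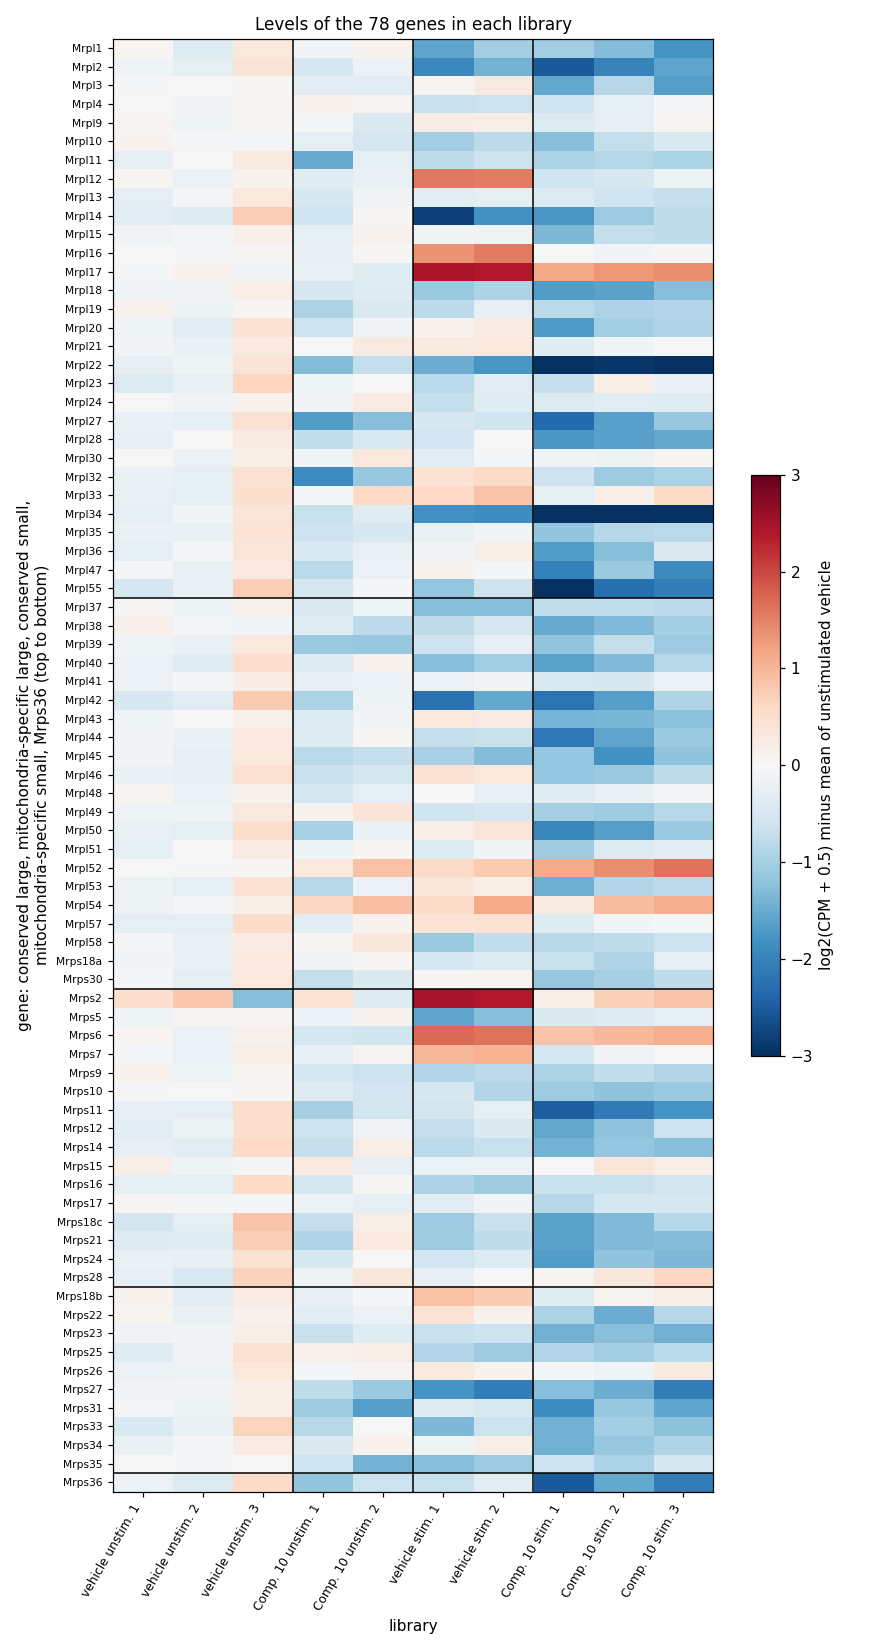
Level of each of the 78 genes in each of the 10 libraries, as log2(CPM + 0.5) minus the mean of the 3 unstimulated vehicle libraries, with genes ordered by subunit and by whether a bacterial counterpart exists. Colour runs from -3 to 3 and values beyond are drawn at the limit. Most genes are blue, so below unstimulated vehicle cells, in the 3 stimulated Compound 10 libraries. This colour takes in stimulation and compound together, whereas the 33 genes called lower with Compound 10 were compared with stimulated vehicle cells. Mrpl17 and Mrps6 are red in all 5 stimulated libraries.

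With Compound 10 present, more of these genes fell than rose on stimulation. The comparison of stimulated with unstimulated Compound 10 cells called 3 genes higher and 27 lower, beside 12.8% and 13.7% of all tested genes (26.5% in either direction). The median log2 fold change was -0.51 for the members and -0.01 for all tested genes. Libraries did not overlap for 4 members higher (24.6% of all genes) and 47 lower (25.8%). The 3 that rose were all among the 9 that rose under vehicle, and of the 27 that fell 12 were among the 25 that fell under vehicle. No member was called in opposite directions. Without unstimulated Compound 10 library 2 the lower count was 15, beside 8.15% of all genes.

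Mrpl17 rose from 8.62 and 7.76 CPM to 23.0, 25.6 and 27.5 CPM (log2 fold change 1.64 ± 0.18, adjusted p = 8.36e-05). Mrps6 rose from 39.5 and 37.3 CPM to 103, 113 and 122 CPM (1.55 ± 0.16, adjusted p = 5.02e-05). Stimulated libraries were above unstimulated ones in both genes. The third, Mrpl52, stood at 5.94 and 9.09 CPM against 10.8, 13.1 and 15.6 CPM (0.80 ± 0.26, adjusted p = 0.0433), and its call was lost in 14 of 21 alternatives, among them protein-coding transcripts alone (adjusted p = 0.418).

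Mrpl34 fell furthest, from 13.8 and 17.0 CPM to 1.11, 1.89 and 1.15 CPM (log2 fold change -3.46 ± 0.30, adjusted p = 1.51e-05). Mrpl22 went from 9.58 and 14.4 CPM to 2.43, 2.74 and 2.39 CPM (-2.25 ± 0.28, adjusted p = 0.000184). Mrpl55 went from 11.3 and 16.2 CPM to 1.33, 3.08 and 3.54 CPM (-2.36 ± 0.44, adjusted p = 0.00256). No stimulated library of these 3 genes reached the lowest unstimulated one. Smaller falls included Mrpl2 (-1.71 ± 0.29, adjusted p = 0.00151), Mrpl1 (-1.42 ± 0.28, adjusted p = 0.003), Mrpl44, which has a ribonuclease III fold (-1.40 ± 0.27, adjusted p = 0.0032), Mrps11 of the small subunit platform (-1.43 ± 0.31, adjusted p = 0.00572) and Mrps21 (-1.29 ± 0.41, adjusted p = 0.0364). The call of Mrps21 was lost in 8 of 21 alternatives, and without unstimulated Compound 10 library 2 its adjusted p was 0.45 and that of Mrps11 was 0.0523.

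In stimulated cells, Compound 10 was accompanied by lower levels of many members. Against stimulated vehicle cells, 33 of the 78 were lower and 2 were higher, beside 12.8% and 10.4% of all tested genes (23.2% in either direction). The median log2 fold change was -0.52 for the members and 0.04 for all tested genes. All 3 Compound 10 libraries lay below both vehicle libraries for 47 members and above them for 9 (27.3% of all genes in each direction). The lower calls took in 21 of 49 Mrpl genes (median -0.50) and 12 of 29 Mrps genes (median -0.54). They included 15 of the 30 conserved large subunit genes, 7 of the 21 mitochondria-specific large subunit genes with Mrps30 and Mrps18a among them, 5 of the 16 conserved small subunit genes and 5 of the 10 mitochondria-specific small subunit genes. Of the 77 cytosolic ribosomal protein genes 0 were called by edgeR in this comparison, 0 by DESeq2, and 0 had an unadjusted edgeR p under 0.05 (median 0.08). On protein-coding transcripts alone, 26 of 77 members were lower and 2 higher with Compound 10 (14.6% and 11.7% of all genes). In bulk RNA, fewer cells with a transcript and less of it per cell cannot be told apart. The lower count was 20 without stimulated vehicle library 1 and 17 without library 2, beside 6.89% and 6.62% of all genes. Markers of regulatory T cells, among them the activation genes Il2ra and Ctla4, summed to 173 and 212 CPM in stimulated vehicle libraries and 50.4 to 80.8 CPM in stimulated Compound 10 libraries, and their part in the result was not tested.

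**Figure D3:**
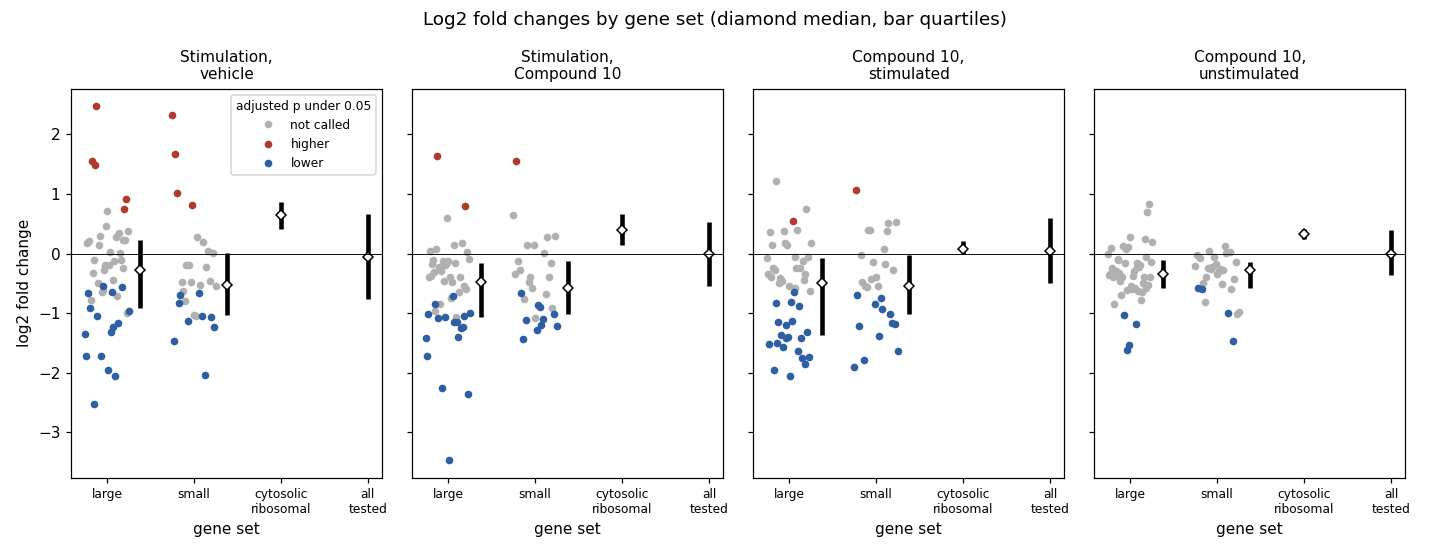
Log2 fold changes of single Mrpl and Mrps genes (points, coloured where adjusted p is under 0.05) in 4 comparisons, beside the median (diamond) and quartiles (bar) of each set, of cytosolic ribosomal protein genes and of all tested genes. In stimulated cells with Compound 10 the medians of large (-0.50) and small (-0.54) subunit genes lie below those of cytosolic ribosomal protein genes (0.08) and all genes (0.04).

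Mrpl12 stood at 126 and 122 CPM in stimulated vehicle cells and at 27.6, 30 and 37.8 CPM in stimulated Compound 10 cells. The log2 fold change was -1.96 ± 0.17 (adjusted p = 5.52e-05), and the Compound 10 libraries overlapped the range of both unstimulated groups (32.3 to 45.4 CPM). Mrpl34 was at 5.92 and 5.71 CPM against 1.11, 1.89 and 1.15 CPM (-2.06 ± 0.32, adjusted p = 0.000902). Mrpl43, a mitochondria-specific large subunit protein (chr19:45004829-45006442, minus strand), was at 46.0 and 43.5 CPM against 13.7, 13.9 and 15.3 CPM (-1.64 ± 0.17, adjusted p = 0.000109). Its gene shares 507 exon bases with Twnk, the mitochondrial helicase gene on the other strand, whose mean was 8.13 CPM in stimulated vehicle and 5.65 CPM in stimulated Compound 10 cells, and the libraries do not record strand.

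Mrpl16 was at 45.7 and 53.2 CPM against 17.6, 16.8 and 18.3 CPM (log2 fold change -1.50 ± 0.17, adjusted p = 0.000152). Its 3 Compound 10 libraries spanned the unstimulated vehicle range of 17.3 to 18.1 CPM. Mrpl50 was at 39.4 and 44.4 CPM against 8.51, 10.6 and 15.7 CPM (-1.85 ± 0.33, adjusted p = 0.00209). Mrpl3, next to the peptidyl transferase centre, was at 25.4 and 29 CPM against 7.96, 13.1 and 7.34 CPM (-1.52 ± 0.24, adjusted p = 0.001). Groups did not overlap in any of these genes.

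Mrpl46 and Mrps11 lie on opposite strands of chromosome 7 with overlapping first parts, share 173 exon bases, and were both lower with Compound 10. Mrpl46 was at 52.9 and 48.9 CPM against 17.0, 17.7 and 22.7 CPM (log2 fold change -1.41 ± 0.23, adjusted p = 0.00134). Mrps11 was at 15.6 and 19.2 CPM against 3.76, 4.97 and 6.37 CPM (-1.78 ± 0.32, adjusted p = 0.00205), with an adjusted p of 0.118 on protein-coding transcripts alone. Reads from their shared bases cannot be assigned to a strand. In the annotation 33 of the 78 genes share exon bases with another gene, 27 of them with a gene on the other strand.

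Further lower calls by the same measure were Mrpl47 (-1.76 ± 0.34, adjusted p = 0.00321), Mrpl22 (-1.57 ± 0.29, adjusted p = 0.00269), Mrpl55 (-1.74 ± 0.46, adjusted p = 0.0172), Mrps2 (-1.90 ± 0.54, adjusted p = 0.0247) and Mrps36 (-1.64 ± 0.38, adjusted p = 0.0098). Mrpl47 shares exon bases with Actl6a (452) and Ndufb5 (616) on the other strand. The calls of Mrpl55 and Mrps36 were lost without stimulated vehicle library 2, that of Mrpl55 also without stimulated Compound 10 library 1, and that of Mrps2 without either stimulated vehicle library and without Compound 10 library 1 or 2. Mrps30, whose product is a large subunit protein, was at 69.1 and 70.4 CPM against 30, 33.5 and 39.4 CPM (-1.02 ± 0.20, adjusted p = 0.00365). Mrps18a, the other such gene, was at 17.8 and 19.5 CPM against 15.9, 13.5 and 21.1 CPM (-0.15 ± 0.23, adjusted p = 0.703), and its groups overlapped.

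Mrpl17 and Mrps6, which rose in both stimulations, were lower in Compound 10 than in vehicle cells after stimulation. For Mrpl17 the levels were 57.4 and 55.7 CPM in vehicle and 23.0 to 27.5 CPM in Compound 10 cells (log2 fold change -1.15 ± 0.17, adjusted p = 0.00058). For Mrps6 they were 186 and 178 CPM and 103 to 122 CPM (-0.69 ± 0.15, adjusted p = 0.00595). Mrps7 was at 113 and 117 CPM against 39.2, 52.1 and 57.0 CPM (-1.21 ± 0.19, adjusted p = 0.00111). These comparisons share the stimulated vehicle libraries with the comparison of stimulation under vehicle, so a high value in them moves both.

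Higher levels with Compound 10 in stimulated cells were called in 2 genes. Mrps5 stood at 11.2 and 13.8 CPM in vehicle and 25.2, 26 and 27.9 CPM in Compound 10 cells (log2 fold change 1.07 ± 0.19, adjusted p = 0.00176). All Compound 10 libraries were above both vehicle libraries, but between 59.3% and 86.7% of the counts of Mrps5 in a library fell in transcripts annotated as retained introns. On protein-coding transcripts alone the log2 fold change was 1.30 with an adjusted p of 0.104. Mrpl37, a mitochondria-specific large subunit protein, was at 20.5 and 20.3 CPM against 30.1, 29.9 and 29.1 CPM (0.54 ± 0.17, adjusted p = 0.0398). Its call was lost in 9 of 21 alternatives, each of the 5 that leave out a stimulated library among them (adjusted p 0.0623 to 0.185).

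**Figure D4:**
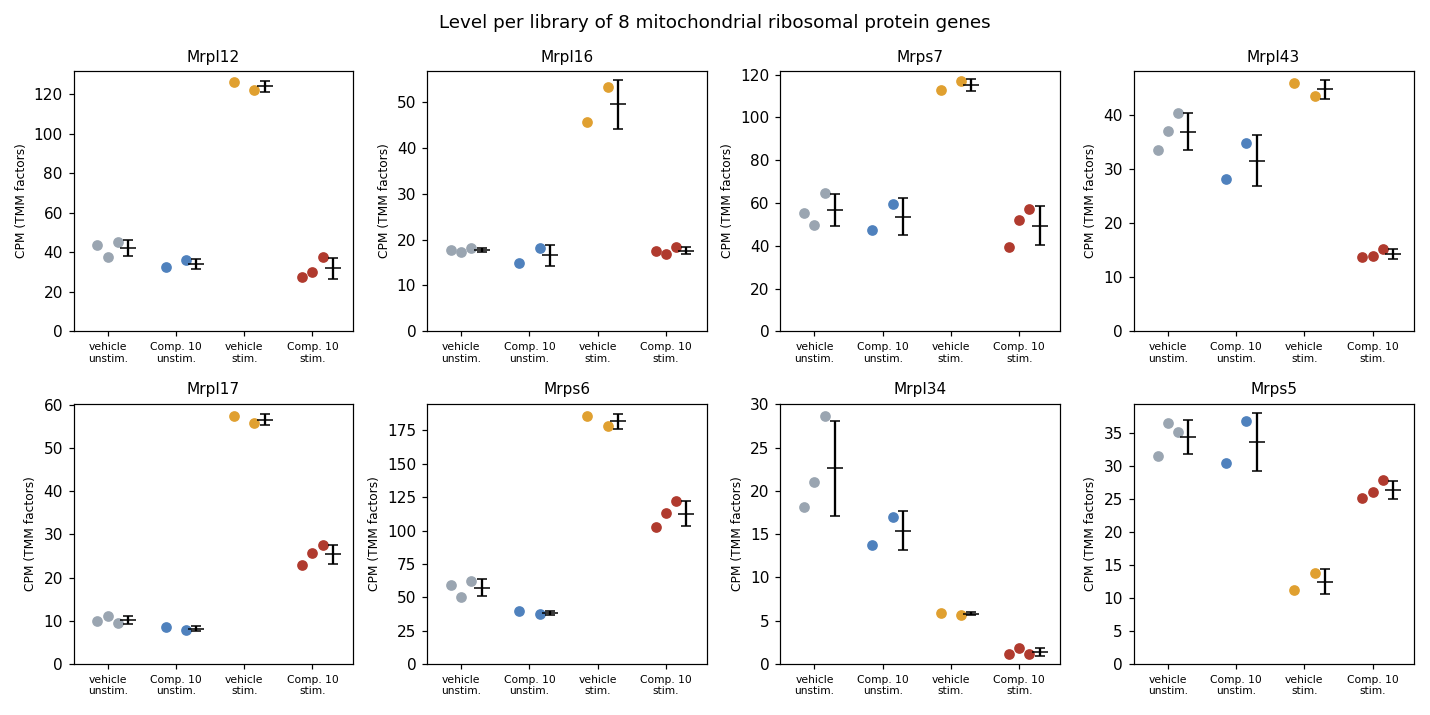
TMM-scaled CPM of 8 members in each library, with the mean and SD of each group. In Mrpl12, Mrpl16 and Mrps7 the 3 stimulated Compound 10 libraries lie at or near the unstimulated range while stimulated vehicle libraries are higher. Mrpl34 is lowest in stimulated Compound 10 libraries (1.11 to 1.89 CPM) and Mrps5 is lowest in stimulated vehicle libraries (11.2 and 13.8 CPM).

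Without stimulation, the members called with Compound 10 were all lower. Against unstimulated vehicle cells, 8 members were lower and 0 were higher, beside 3.78% and 4.65% of all tested genes (8.43% in either direction). DESeq2 called 14 lower and 0 higher (6.80% and 6.30% of all genes), and 24 of the 78 had an unadjusted p under 0.05 in edgeR. The median log2 fold change was -0.31 for the members and 0.00 for all genes. The members' median was -0.13 without unstimulated vehicle library 3, -0.19 without unstimulated Compound 10 library 1 and -0.48 without library 2. Both Compound 10 libraries lay below all 3 vehicle libraries for 29 members (19.1% of all genes) and above them for 2 (18.8%). Each of these calls was lost under at least 2 alternatives, and an edgeR fit of these 2 groups alone called 0 members, with 22 at an unadjusted p under 0.05. Leaving out either of the unstimulated Compound 10 libraries left 2 members called lower, beside 1.77% of all genes without library 1 and 0.466% without library 2. Leaving out any other library gave 3 to 8. With a block for runs of sample index numbers 21 members were called lower, beside 7.85% of all genes.

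Mrpl32, whose product is matured by the m-AAA protease of the inner membrane, was at 26.7, 25.2 and 42.4 CPM in vehicle and 7.92 and 13.6 CPM in Compound 10 cells (log2 fold change -1.53 ± 0.29, adjusted p = 0.0118). Mrpl27 was at 8.98, 8.62 and 14.5 CPM against 2.94 and 3.97 CPM (-1.62 ± 0.39, adjusted p = 0.0295). Mrps31 was at 10.6, 9.88 and 12.6 CPM against 4.98 and 3.14 CPM (-1.46 ± 0.31, adjusted p = 0.0187). The groups did not overlap in these 3 genes. Mrpl39 (-1.18 ± 0.24, adjusted p = 0.0149), Mrpl22 (-1.03 ± 0.26, adjusted p = 0.0357), Mrps27 (-0.99 ± 0.28, adjusted p = 0.0497), Mrps9 (-0.59 ± 0.16, adjusted p = 0.0417) and Mrps6 (-0.58 ± 0.15, adjusted p = 0.0414) made up the rest. Of the 8 genes, 5 were also lower among the 33 in stimulated cells: Mrpl22, Mrpl27, Mrpl32, Mrps6 and Mrps31. Of the 70 members not called in unstimulated cells, 28 were lower in stimulated cells, and the matching overlap over all genes was not counted. In stimulated cells Mrpl32 was at 41.7 and 45.6 CPM with vehicle and 19.7, 14.4 and 15.6 CPM with Compound 10 (-1.40 ± 0.28, adjusted p = 0.00402). The sole annotated transcript of Mrpl32 carries the nonsense-mediated decay label in the annotation used.

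The difference between the effect of Compound 10 in stimulated and in unstimulated cells passed the test in 6 members. This was near the share of all tested genes that passed (6.63% in either direction). The effect in stimulated cells was more negative in 4 (5.13% of members, 4.08% of all genes) and more positive in 2 (2.56% and 2.55%). The 4 were Mrpl12 (difference of log2 fold changes -1.66 ± 0.24, adjusted p = 0.00381), Mrpl43 (-1.42 ± 0.24, adjusted p = 0.00697), Mrpl16 (-1.40 ± 0.24, adjusted p = 0.007) and Mrps7 (-1.13 ± 0.27, adjusted p = 0.0323). In unstimulated cells the effects on these 4 were -0.31 ± 0.18, -0.23 ± 0.17, -0.10 ± 0.17 and -0.08 ± 0.19, none of them called. Mrps5 (1.10 ± 0.25, adjusted p = 0.0265) and Mrps35 (1.54 ± 0.41, adjusted p = 0.0474) had the opposite sign. Mrps35, a mitochondria-specific small subunit protein, stood at 13.3, 12.8 and 13.3 CPM in unstimulated vehicle and 8.49 and 4.64 CPM in unstimulated Compound 10 cells, and at 5.15 and 5.89 CPM against 8.40, 6.51 and 9.11 CPM in stimulated cells. For the other 72 members a difference between states was not shown, and on simulated counts this test found 2% of 2-fold and 52% of 4-fold changes. Among them were Mrpl34 (-1.51 ± 0.41, adjusted p = 0.0502), Mrpl50 (-1.27 ± 0.46, adjusted p = 0.123) and Mrps2 (-1.69 ± 0.77, adjusted p = 0.222). The call of Mrpl12 was kept in all 20 alternatives, those of Mrpl16 and Mrpl43 in 19 each, and those of Mrps7, Mrps5 and Mrps35 were lost in 8, 9 and 12.

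Kallisto counts each transcript of a gene, so the make-up of the members' counts could be followed as well. Between 78.2% and 81.9% of the members' counts in a library lay in protein-coding transcripts and 8.05% to 12.3% in transcripts annotated as retained introns. Of the 37 members with a retained-intron transcript, the share of counts in such transcripts was higher in both stimulated than in all 3 unstimulated vehicle libraries for 22 and lower for 1, beside 27.2% and 10.3% of 5136 genes. In Compound 10 cells stimulation gave 9 higher and 3 lower (18.0% and 11.5% of genes). Compound 10 in stimulated cells gave 4 higher and 11 lower (13.8% and 15.8%), and in unstimulated cells 5 higher and 3 lower (15.3% and 7.11%). These shares come from read assignment by kallisto among overlapping transcripts of one gene and carry no test.

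Mrpl38, a mitochondria-specific large subunit protein, had the most uneven shares among the 4 genes plotted, which were picked after their values were seen. The retained-intron share of its counts was 41.2%, 48.7% and 44.0% in unstimulated vehicle libraries and 96.1% and 100% in stimulated vehicle libraries, where 6 and 0 of its counts lay in the protein-coding transcript. With Compound 10 the shares were 58.9% and 42.3% unstimulated and 73.8%, 85.9% and 59.0% stimulated. In these stimulated Compound 10 libraries 26, 20 and 72 counts lay in the protein-coding transcript, although the gene's summed count was called lower than in stimulated vehicle cells. Mrps9, a conserved small subunit protein, had 11.1%, 12.5% and 7.96% in unstimulated and 25.6% and 26.3% in stimulated vehicle libraries, and 14.8% and 14.4% against 8.28%, 9.01% and 10.5% with Compound 10. In both genes all stimulated vehicle libraries were above all others.

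**Figure D5:**
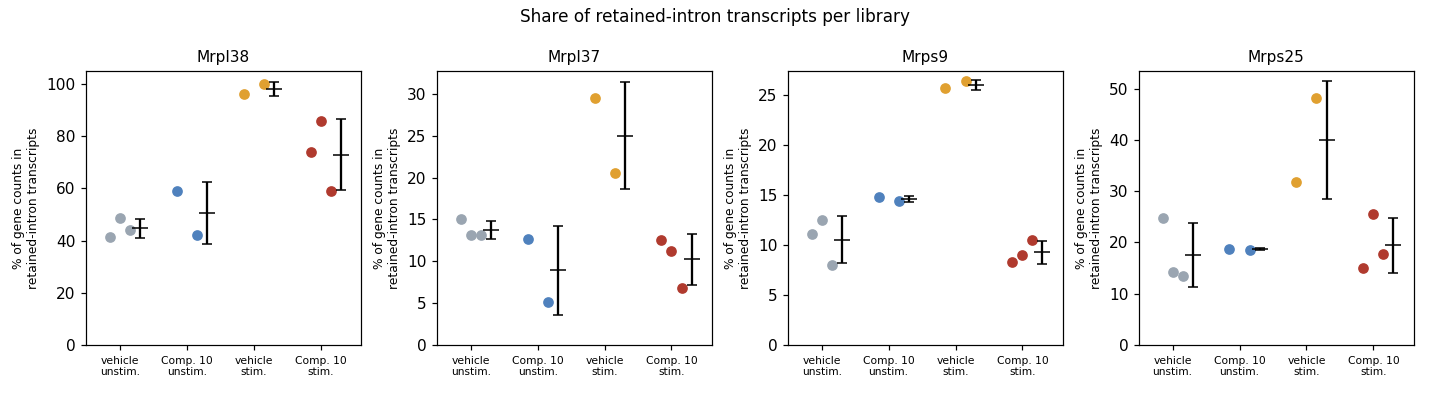
Share of a gene's counts assigned to transcripts annotated as retained introns, in percent, for 4 members in each library, with the mean and SD of each group. Stimulated vehicle libraries are highest in each gene, for example 25.6% and 26.3% in Mrps9 against at most 14.8% elsewhere.

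Genes that work with the mitochondrial ribosome were counted from lists. Of 5 ribosome subunits named otherwise, 1 rose and 0 fell under vehicle stimulation (19.5% and 19.4% of all genes). The riser was Dap3 (log2 fold change 0.46 ± 0.15, adjusted p = 0.0262). With Compound 10 in stimulated cells 0 were higher and 2 lower (10.4% and 12.8% of all genes). The 2 were Ptcd3 (-1.56 ± 0.19, adjusted p = 0.000201) and Aurkaip1 (-1.16 ± 0.18, adjusted p = 0.00108). Stimulation with Compound 10 gave 0 rises and 1 fall (12.8% and 13.7%), and the interaction 0 higher and 1 lower (2.55% and 4.08%). Of 28 assembly and rRNA modification genes, 2 rose and 8 fell under vehicle stimulation, beside 19.5% and 19.4% of all tested genes. With Compound 10 stimulation gave 0 rises and 7 falls (12.8% and 13.7% of all genes). In stimulated cells 0 of the 28 were higher and 8 lower with Compound 10 (10.4% and 12.8% of all genes). The 8 included Ddx28, a helicase of large subunit assembly (-2.37 ± 0.28, adjusted p = 0.000201), and Trub2, a pseudouridine synthase (-1.83 ± 0.25, adjusted p = 0.000471). In unstimulated cells 3 of the 28 were lower with Compound 10, beside 3.78% of all genes.

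Of 17 translation factor and mRNA handling genes, 1 was higher and 5 lower with Compound 10 in stimulated cells (10.4% and 12.8% of all genes). In unstimulated cells edgeR called 0 (3 at an unadjusted p under 0.05), beside 8.43% of all genes. DESeq2 called 2 lower there, beside 6.80% of all genes. Tufm, the elongation factor that brings aminoacyl-tRNA to the ribosome, was at 166 ± 11.3 CPM in stimulated vehicle and 53.9 ± 4.48 CPM in stimulated Compound 10 cells (log2 fold change -1.62 ± 0.15, adjusted p = 6.19e-05). Gfm2, a factor of ribosome recycling, was higher with Compound 10 (13.5 ± 1.75 against 42.7 ± 4.04 CPM, log2 fold change 1.66 ± 0.18, adjusted p = 0.000141). Among 9 genes of mitochondrial DNA transcription and replication, 3 were lower and 1 was higher in that comparison (12.8% and 10.4% of all genes), among them Tfb2m, the promoter-melting factor (-1.52 ± 0.21, adjusted p = 0.000422).

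Of the RNAs the mitochondrial genome encodes (15 measured), 11 rose and none fell under vehicle stimulation with TMM factors (19.5% and 19.4% of all genes). Without those factors, however, 2 rose and 1 fell (8.34% and 45.8% of all genes). The ribosome's own large rRNA, mt-Rnr2, had a log2 fold change of 1.59 ± 0.19 under vehicle stimulation (adjusted p = 6.23e-05). With Compound 10 in stimulated cells 4 of the 15 were lower (12.8% of all genes), mt-Nd1 furthest (-1.37 ± 0.14, adjusted p = 9.77e-05). Cytosolic ribosomal protein genes rose in 41 of 77 cases under vehicle stimulation (median 0.65), beside 19.5% of all genes. Without TMM factors, however, their median was -0.12, with 4 called, beside 8.34% of all genes higher and 45.8% lower. The members' median under vehicle stimulation was negative with and without TMM factors, at -0.46 and -1.23, and its difference from the median of all genes was -0.41 and -0.40. Of 9 tested regulators of nuclear genes for mitochondria, 2 rose and 1 fell under vehicle stimulation (19.5% and 19.4% of all genes). Stimulation with Compound 10 gave 2 rises and 0 falls (12.8% and 13.7%). Compound 10 in stimulated cells gave 1 higher and 0 lower (10.4% and 12.8%), and the interaction 1 and 0 (2.55% and 4.08%). Myc rose in both stimulations (log2 fold changes 6.32 ± 0.18, adjusted p = 6.26e-09, and 6.03 ± 0.20, adjusted p = 5.34e-08), and Pprc1 rose under vehicle (1.70 ± 0.27, adjusted p = 0.000487). Myc was at 2591 ± 7.68 CPM in stimulated vehicle and 2303 ± 210 CPM in stimulated Compound 10 cells, a difference that was not called. In no comparison were 19 members called, and the matching share of all genes was not counted. Among the 19 were Mrpl30, the second highest in TPM, and Mrpl11, the lowest.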

How the data were processed

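The authors made the estimated counts with kallisto and deposited them by transcript, in 1 table for each library, per the file headers; cutadapt, kallisto and mm10 are named in the submitters' processing notes, without versions. The same deposited tables give TPM, the authors' abundance per transcript length, scaled to a common total. Libraries were made from total RNA with a SMART-seq kit that does not mark strand, per the labels' protocols.

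Transcripts were assigned to genes of GENCODE M21 (108214 of 109617 matched, the rest holding 0.507% to 0.671% of counts and left out), and the estimated counts of a gene's transcripts were added and rounded. All 10 libraries entered 1 edgeR 4.0.16 quasi-likelihood fit (R 4.3.3, TMM factors, filterByExpr) with 1 coefficient per group, with Benjamini-Hochberg adjustment over 14417 genes. Genes with adjusted p under 0.05 are called. On simulated counts of 14417 genes the test recovered 17% to 24% of 2-fold and 68% to 73% of 4-fold changes in the 4 comparisons of groups. For the interaction it recovered 2% and 52%. Each simulation was a single draw in which fewer genes were changed than were called in the data. The adjustment depends on the share of genes changed, so these rates need not hold for the data. False calls were 6.32% of calls for vehicle stimulation, 9.57% for stimulation with Compound 10, 4.04% and 9.62% for Compound 10 in stimulated and unstimulated cells, and 6.90% for the interaction, so some exceeded the nominal 5%, and a gene without a call may still have changed. Libraries within a group differed by more than sampling noise (chi-square per degree of freedom 13.7 to 42.2 in stimulated groups). This value was 15.4 between unstimulated vehicle libraries 1 and 2, and 120 and 92.6 between each of these and library 3. Between the unstimulated Compound 10 libraries it was 84.8. Alternatives used DESeq2 1.42.0, other scalings and filters, blocks, and left-out libraries.

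The members and lists were chosen with earlier results of these data known. Named were, per comparison, the 8 largest rises and falls among called genes with mean log2 CPM of at least 2, any called gene whose log2 fold change was 1.5 or more in size, the 3 highest and 3 lowest in TPM, and Mrps30, Mrps18a and Mrps36. Other genes are examples chosen after their values were seen.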

Additional observations from a re-analysis of the deposited data

Results flagged for a closer look

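By the interaction term of the edgeR fit, the effect of Compound 10 differed between stimulated and unstimulated cells in 6 of the 78 genes. Negative differences were 5.13% of members and 4.08% of all tested genes, and positive ones 2.56% and 2.55%. The count of members thus lay near the share of all tested genes that passed this test (6.63%). The difference of log2 fold changes, stimulated minus unstimulated, was -1.66 for Mrpl12, -1.40 for Mrpl16, -1.42 for Mrpl43 and -1.13 for Mrps7. It was 1.10 for Mrps5 and 1.54 for Mrps35. With Compound 10 the 3 stimulated libraries were below both stimulated vehicle libraries in Mrpl12, Mrpl16, Mrpl43 and Mrps7, and above them in Mrps5 and Mrps35. Groups held 2 or 3 libraries, so no single library was examined as an outlier.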

How the results depend on the processing

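Each count and named gene was recomputed under 21 alternatives (20 for the interaction, and 20 for Mrpl32, which has no protein-coding transcript), of which thinning to the smallest library and leaving out the 2 deepest libraries were chosen after seeing the data. No named gene changed direction, and calls were lost in 151 of 1127 cases. Without TMM factors 5 members were higher and 57 lower under vehicle stimulation (8.34% and 45.8% of all genes). Under stimulation with Compound 10, 60 were lower (36.2%), and for the interaction 4 were higher (3.66%). The median of all genes was then -0.83 and -0.60 in these stimulations, and the interaction median of the members was 0.03 in place of -0.16. With upper-quartile factors the calls of all genes for Compound 10 in stimulated cells split as 2090 higher and 1528 lower, against 1502 and 1848, and for stimulation with Compound 10 as 2107 and 1660, against 1844 and 1972. Leaving out the 2 deepest libraries left 1 unstimulated Compound 10 library. The members' median was then -0.23 under vehicle stimulation and -0.23 for the interaction. For Compound 10 it was -0.53 in stimulated and -0.30 in unstimulated cells. In fits of 2 groups 0 members were lower with Compound 10 in unstimulated cells (0.254% of all genes). DESeq2 gave 14 lower there (6.80% of all genes), and 4 higher and 9 lower for the interaction (4.79% and 6.80%). Length-scaled TPM gave 5 lower in unstimulated cells (2.53% of all genes) and 0 higher for the interaction (1.63%). The interaction had 10 lower without the filter (3.04%) and 7 lower on protein-coding transcripts alone (4.82%). The cause of these differences was not tested.

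No label says that replicate numbers pair libraries. Correlations of same-numbered libraries' deviations from their group means ran from -0.279 to 0.331. In a group of 2 libraries the deviations mirror each other, so these correlations cannot decide whether libraries are paired. Between libraries of 1 run of sample index numbers they ran from -0.0516 to 0.464 (12 pairs) and between runs from -0.464 to 0.331 (25 pairs). With the replicate block 43 members were lower under stimulation with Compound 10 (2301 of 14417 genes in all). Compound 10 then had 1 higher in each state (12.7% of all genes in stimulated and 6.10% in unstimulated cells). The interaction gave 1 higher and 17 lower (4.13% and 6.30% of all genes). A block for runs of sample index numbers, which no label calls a batch, gave 21 lower in unstimulated cells and 5 higher and 17 lower for the interaction, while 7.85% of all genes were lower in unstimulated cells (3.78% without the block) and 6.08% higher and 8.95% lower for the interaction (2.55% and 4.08%). Within runs, the members' median difference on log2(CPM + 0.5) was -0.37 and -0.09 for vehicle stimulation, -0.35 and -0.51 for stimulation with Compound 10, -0.63 and -0.58 for Compound 10 in stimulated cells and -0.33 and -0.46 for it in unstimulated ones.

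With 1 library left out, a lone library is assumed to vary like the other groups. Under vehicle stimulation 6 to 12 were higher and 12 to 28 lower, under stimulation with Compound 10 2 to 3 and 15 to 34. These ranges for the stimulations take in every library left out in turn. The ranges that follow take in libraries of 3-library groups alone, so the 2 kinds of range cannot be compared. With Compound 10 in stimulated cells 1 to 2 were higher and 23 to 33 lower (7.61% to 12.8% and 10.1% to 14.7% of all genes). In unstimulated cells 0 were higher and 3 to 8 lower (2.57% to 5.13% and 1.32% to 4.24%). For the interaction the ranges were 0 to 2 and 3 to 10 (1.21% to 3.77% and 2.31% to 5.58%). When libraries of 2-library groups were left out as well, the minimum of the lower counts went further down for Compound 10 in either state. The same held for the interaction, and the lowest shares of all genes went down with these counts. The interaction gave 10 lower without unstimulated vehicle library 3 and 2 lower without either stimulated vehicle library. Small groups and genes with few counts, such as Mrps2 and Mrpl11, limit the precision.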
